A study of Mus musculus with 12 samples.

Results

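En1, Evx1, Gata2, Gata3, Sim1, Lbx1, Tal1, Foxn4 and Pax2 encode transcription factors that mark classes of spinal interneurons. Their accessible chromatin was followed during the differentiation of mouse embryonic stem cells (ESCs) towards motor neurons and interneurons. A domain, an accessible stretch called from ATAC-seq, was assigned to a gene when it met at least 1 of 3 conditions. It overlapped the promoter, taken as 1 kb to either side of a transcription start site (TSS), or it overlapped the gene body, or the gene had the nearest protein-coding TSS. These 9 genes, of 21938 protein-coding genes in all, held 596 of the 482514 domains in 6 lists. They held 118 of 94875 domains in EBs, 113 of 87916 in progenitors, 114 of 88806 without Dox, 115 of 91181 in iHoxc6, 69 of 63504 in iHoxc9 and 67 of 56232 in iHoxc10. The nearest start site is a rule of position, and no link between a distant domain and its gene was measured.

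The study used ATAC-seq, in which a transposase cuts open DNA, to ask which chromatin was accessible before and after a Hox factor was induced. EBs are embryoid bodies, aggregates of ESCs, sampled before patterning, and progenitors had received 2 days of retinoic acid (RA, 1 µM) and the Hedgehog agonist SAG (0.5 µM). Both came from the parental line Ainv15(iCre), which carries no Hox transgene. The 4 other groups had 4 days of RA and SAG. The noDox control was the Ainv15(iFlag.Hoxc6) line without doxycycline (Dox). In iHoxc6, iHoxc9 and iHoxc10, a single-copy transgene at the HPRT locus encoding Flag-tagged Hoxc6, Hoxc9 or Hoxc10 was switched on by 3 µg/mL Dox for the last 48 h. Line, transgene and Dox thus differ together between noDox and the iHoxc9 and iHoxc10 groups, and their parts cannot be told apart.

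Each group had 2 samples and 1 deposited list made from both, so no value below has a replicate error and no difference could be tested. The lists hold positions only, and read depth is unknown. Covered length over the whole genome ranged from 17.8 Mb in iHoxc9 to 29.7 Mb in noDox. The noDox list has a different column layout and a name with another day, and may have been called with other settings. The labels of EBs, progenitors and noDox were checked on defining genes. Pou5f1, the pluripotency factor, had 1533 bp of domains in EBs, 0 in progenitors and 38 bp in noDox, and Mnx1, a motor neuron factor, had 1603 bp in EBs and 6377 bp in noDox. Other pluripotency genes were mixed. Nanog (2864 bp in EBs and 529 bp in noDox), Zfp42 (2015 and 533 bp) and Tfcp2l1 (2455 and 1617 bp) had less in noDox. Esrrb had 2677 and 2430 bp, and Klf4 had more in noDox (4306 and 5892 bp). The labels of the induced lists were not checked in this way. In bulk samples, fewer cells with an open site and less opening per cell cannot be told apart.

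In the developing spinal cord, Sonic hedgehog from the floor plate and other signals divide progenitors along the dorsoventral axis, and each domain gives rise to its own neurons. Motor neurons arise beside several ventral interneuron classes and share progenitor factors with them. Evx1 marks V0 and En1 marks V1 neurons, Foxn4 acts in V2 progenitors, and Gata2, Gata3 and Tal1 act together in V2b neurons, as they also do in blood. Sim1 marks V3 neurons, the class closest to the floor plate, Lbx1 specifies dorsal classes, and Pax2 is expressed in many inhibitory interneurons. Hox genes set the position along the rostrocaudal axis, with Hoxc6 at limb level in the brachial cord, Hoxc9 in the thoracic and Hoxc10 in the lumbar cord.

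The sequences that the results turn on are given here, each as the central 200 bp of a region from build mm10 (GRCm38). A region is the union of overlapping domains of the 6 lists. The regions were chosen because they differed between lists, apart from the Evx1 region, the widest of that gene outside its promoter. Both the En1 and the Evx1 region were in every list, with covered lengths that differed. The En1 domains of EBs and noDox lay outside the 200 bp printed. The last sequence is the 250 bases before the first Gata2 start site in the RefSeq promoter table (GRCm38.p6). Capitals mark TAAT, the core bound by many homeodomains, and ATAAA, a core preferred by posterior Hox proteins, on either strand (ATTA and TTTAT on the strand printed), with overlapping matches run together.
Sim1 upstream region, chr10:50763499-50763698, plus strand: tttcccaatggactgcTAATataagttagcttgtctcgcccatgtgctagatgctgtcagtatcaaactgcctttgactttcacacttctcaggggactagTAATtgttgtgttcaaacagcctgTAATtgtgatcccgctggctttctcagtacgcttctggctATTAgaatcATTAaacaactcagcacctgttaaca
En1 downstream region, chr1:120912088-120912287, plus strand: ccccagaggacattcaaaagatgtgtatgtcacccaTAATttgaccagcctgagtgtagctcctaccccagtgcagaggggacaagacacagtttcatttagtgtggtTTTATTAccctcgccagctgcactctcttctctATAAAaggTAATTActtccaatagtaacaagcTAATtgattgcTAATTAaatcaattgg
Foxn4 intronic region, chr5:114264184-114264383, plus strand: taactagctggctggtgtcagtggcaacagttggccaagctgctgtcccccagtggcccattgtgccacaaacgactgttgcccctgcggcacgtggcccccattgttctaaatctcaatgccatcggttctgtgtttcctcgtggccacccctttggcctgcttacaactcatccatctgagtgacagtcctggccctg
Gata3 downstream region, chr2:9633084-9633283, plus strand: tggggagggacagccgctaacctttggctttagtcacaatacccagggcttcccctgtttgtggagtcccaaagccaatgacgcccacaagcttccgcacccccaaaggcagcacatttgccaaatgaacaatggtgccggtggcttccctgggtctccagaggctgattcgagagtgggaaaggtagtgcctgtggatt
Pax2 upstream region, chr19:44671062-44671261, plus strand: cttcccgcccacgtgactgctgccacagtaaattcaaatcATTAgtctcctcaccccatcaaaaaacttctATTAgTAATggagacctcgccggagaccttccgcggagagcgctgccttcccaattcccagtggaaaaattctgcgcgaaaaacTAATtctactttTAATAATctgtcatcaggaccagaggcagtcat
Lbx1 downstream region, chr19:45231276-45231475, plus strand: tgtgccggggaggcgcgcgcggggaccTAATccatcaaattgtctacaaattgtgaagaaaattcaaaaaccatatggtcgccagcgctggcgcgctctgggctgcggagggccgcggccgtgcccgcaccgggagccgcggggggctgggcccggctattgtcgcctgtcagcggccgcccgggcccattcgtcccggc
Evx1 upstream region, chr6:52306016-52306215, plus strand: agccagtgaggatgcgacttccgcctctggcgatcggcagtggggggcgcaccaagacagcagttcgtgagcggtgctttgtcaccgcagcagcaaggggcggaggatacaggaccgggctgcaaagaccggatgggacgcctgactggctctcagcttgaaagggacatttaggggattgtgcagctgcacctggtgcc
Gata2 upstream promoter, chr6:88193641-88193890, plus strand: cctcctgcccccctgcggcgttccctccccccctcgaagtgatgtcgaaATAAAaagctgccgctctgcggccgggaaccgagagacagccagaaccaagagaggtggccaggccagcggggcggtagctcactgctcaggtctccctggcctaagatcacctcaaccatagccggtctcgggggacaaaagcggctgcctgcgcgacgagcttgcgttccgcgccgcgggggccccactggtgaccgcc

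The Sim1 upstream region held 5 matches to TAAT and none to ATAAA, and the En1 downstream region held 7 and 2. The Pax2 region held 6 matches to TAAT, while the Foxn4 and Gata3 regions held neither core. Over all 272 regions of the 9 genes, 55.9% had TAAT in their central 200 bp, 28.3% had ATAAA and 1.84% had TGATTTAT. The study described TGATTTAT as a joint motif of the co-factor PBX and posterior Hox proteins. The E-box CANNTG, the site of bHLH factors such as Tal1, was in 65.1%. Over the 218556 regions of all lists with a full window, these shares were 59.8%, 36.7%, 1.44% and 68.7%. TGATTTAT ends in a match to the ATAAA core, so these counts overlap. The windows of the 9 genes had a median GC content of 52.8%, against 48.5% over all regions. A match describes the letters of a window and shows no binding.

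All of the genes but Evx1 had a promoter domain in EBs and in progenitors. This gave 8 of 9 in each, where 68.6% of all genes in EBs and 65.9% in progenitors had one. In noDox 8 of 9 again had one, against 64.8% of all genes, but they were not the same 8, since Foxn4 had none there and Evx1 had one of 42 bp. Promoter domains were found at 7 of 9 genes in iHoxc6 (65.1% of all genes), at 6 in iHoxc9 (62.3%) and at 6 in iHoxc10 (61.9%). En1, Gata2, Gata3, Sim1, Tal1 and Pax2 had a promoter domain in every list. Open promoters were thus present at most interneuron factors in EBs, before any patterning signal was given.

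From EBs to noDox, the total covered length of the 9 genes was 22698 bp in EBs, 25968 bp in progenitors and 26425 bp in noDox. The noDox list came from the transgenic line and the other 2 from the parental line, so line and time cannot be told apart in its comparisons with them. A gene was called higher or lower between lists when its covered length differed at least 2-fold and by at least 500 bp. From EBs to progenitors, 0 of 9 genes were called in either direction, where 7.60% of all genes with at least 500 bp in either list were called higher and 6.26% lower. From progenitors to noDox, Tal1 was called higher and none lower, against 4.54% and 1.78% of all genes. Between EBs and noDox, En1 and Sim1 were called higher and none lower, against 14.8% and 6.72%. When each list was scaled to its own covered length, the Tal1 call (2.05% of all genes) and the En1 call (6.46%) were lost and that of Sim1 remained.

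**Figure D1:**
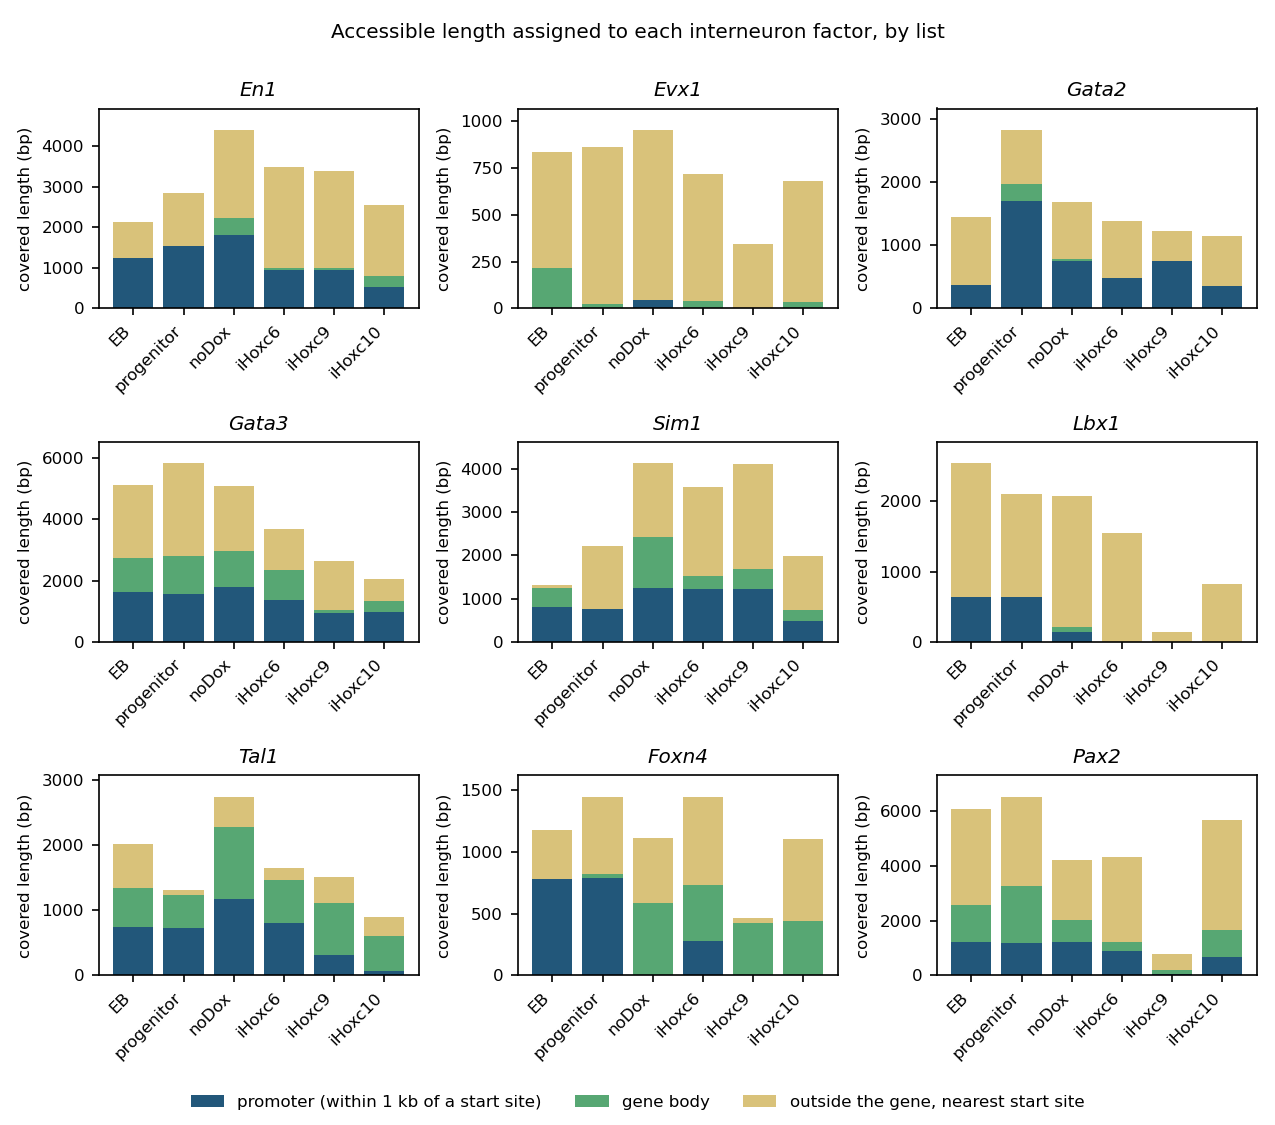
Covered length in bp (vertical axis, a separate scale for each gene) assigned to each interneuron factor in the 6 lists, with stacked bars for domains at the promoter, in the gene body and outside the gene. Lbx1 stood at 137 bp and Pax2 at 795 bp in iHoxc9, while Sim1 had 4102 bp there. There is 1 list per group and therefore no error bar.

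After induction, each list was set against noDox, which all 3 comparisons share. In iHoxc6, 0 of 9 genes were called, where 0.565% of all genes were higher and 3.81% lower. In iHoxc9, Evx1, Lbx1, Foxn4 and Pax2 were called lower, 4 of 9, against 27.6% of all genes, and none was higher (0.279%). Gata3 at a ratio of 0.520 and Tal1 at 0.552 lay just short of the 2-fold limit there. In iHoxc10, Gata3, Sim1, Lbx1 and Tal1 were called lower, again 4 of 9, against 14.5% of all genes, and none was higher (0.279%).

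These counts move with the length of the lists. The iHoxc6, iHoxc9 and iHoxc10 lists covered 0.833, 0.597 and 0.676 times the length of the noDox list, and the median ratio over all genes tested was 0.826, 0.606 and 0.695. For the 9 interneuron factors the median ratio was 0.791, 0.520 and 0.578, with 6 of 9 genes below the median of all genes in each comparison. With each list scaled to its own covered length, Lbx1 and Pax2 remained lower in iHoxc9, where 5.47% of all genes were, and Tal1 remained lower in iHoxc10, where 3.09% were. The other 5 calls were lost.

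**Figure D2:**
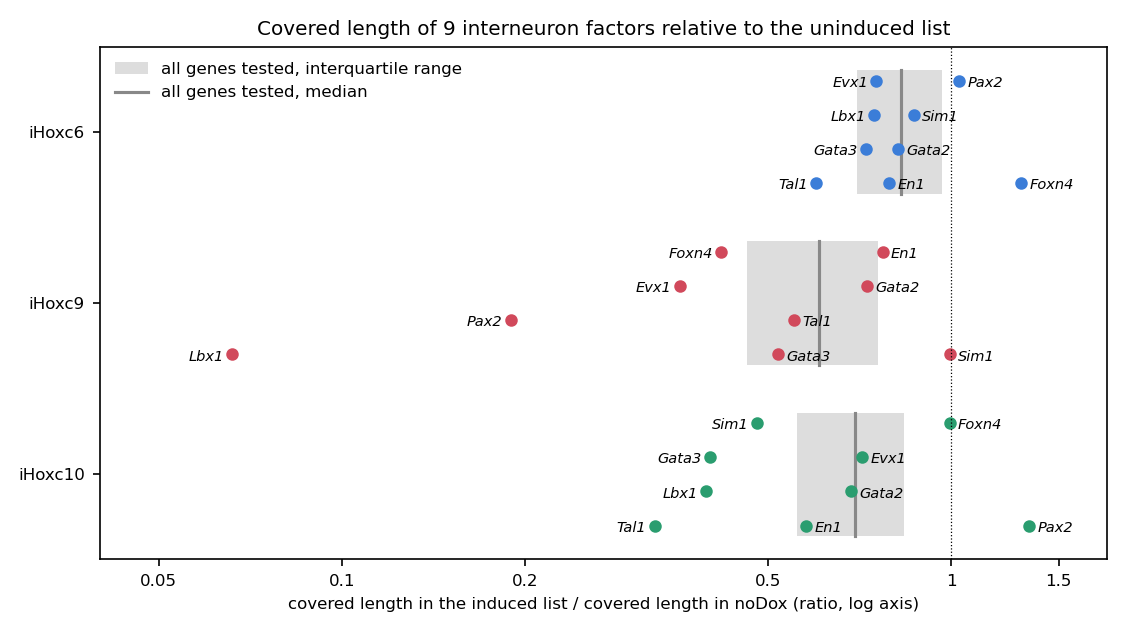
Ratio of covered length in each induced list to that in noDox (horizontal log axis) for the 9 factors, beside the median (line) and interquartile range (shaded) of all genes tested. Lbx1 at 0.0660 and Pax2 at 0.189 lie farthest to the left in iHoxc9, where Sim1 lies at 0.994, and Tal1 at 0.326 is the lowest in iHoxc10. Each point is 1 pair of lists.

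Because the settings of the noDox list are in doubt, the induced lists were also set against progenitors, a choice made after the values were seen. Then Gata2 was lower in iHoxc6, 1 of 9, against 3.38% of all genes lower and 1.74% higher. In iHoxc9, Evx1, Gata2, Gata3, Lbx1, Foxn4 and Pax2 were lower, 6 of 9, against 20.5% lower and 0.781% higher. In iHoxc10, Gata2, Gata3 and Lbx1 were lower, 3 of 9, against 11.3% lower and 0.867% higher. Lbx1 in both posterior lists, Gata3 in iHoxc10 and Evx1, Foxn4 and Pax2 in iHoxc9 were called against either reference, whereas Sim1 and Tal1 in iHoxc10 were called only against noDox. Among the former, scaling to the list lost the noDox calls of Lbx1 and Gata3 in iHoxc10 and of Evx1 and Foxn4 in iHoxc9. The Lbx1 call in iHoxc10 against noDox was also lost with domains at least 150 bp wide. The Evx1 call in iHoxc9 was also lost within 100 kb of a start site. Calls against progenitors were not scaled, and the iHoxc9 and iHoxc10 lists covered 0.691 and 0.782 times the length of the progenitor list. Progenitors came from the parental line, so cell line and time differ in these comparisons too.

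Lbx1, a homeobox gene that separates dorsal association neurons from their neighbours, had the lowest ratio to noDox of the 9 genes, 0.0660 in iHoxc9. Its covered length was 2538 bp in EBs, 2104 bp in progenitors, 2075 bp in noDox, 1548 bp in iHoxc6, 137 bp in iHoxc9 and 821 bp in iHoxc10. The number of its domains was 12, 11, 12, 13, 2 and 4 in the same order. The 2 domains left in iHoxc9 were 100 and 37 bp wide. At the promoter the low values were not particular to iHoxc9, since domains there covered 631 bp in EBs, 635 bp in progenitors and 144 bp in noDox, and none were found in the 3 induced lists.

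The widest Lbx1 domain without Dox lay 4.44 kb downstream of the start site, beyond the 3′ end of the gene (chr19:45230934-45231818, intergenic; sequence above). This region was absent from EBs, covered 604 bp in progenitors, 841 bp in noDox, 643 bp in iHoxc6 and 529 bp in iHoxc10, and was absent from iHoxc9. A second intergenic region 58.0 kb upstream (chr19:45293530-45294024) had 285, 262, 234, 291, 0 and 188 bp in EBs, progenitors, noDox, iHoxc6, iHoxc9 and iHoxc10. Both were thus held by every day 4 list except iHoxc9. Per Mb of the list, Lbx1 covered 69.8 bp in noDox, 7.71 bp in iHoxc9 and 40.8 bp in iHoxc10.

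Pax2, a paired-domain factor of inhibitory interneurons, of the midbrain-hindbrain boundary and of kidney, separated iHoxc9 from iHoxc10. Its covered length was 6080 bp in EBs, 6521 bp in progenitors, 4217 bp in noDox, 4329 bp in iHoxc6, 795 bp in iHoxc9 and 5660 bp in iHoxc10. The iHoxc9 list was the only one below noDox. The region around its main promoter (chr19:44756183-44757446, untranslated and coding exon) covered 1085, 1143, 1220, 834, 45 and 628 bp in that order. Per Mb of the list, Pax2 covered 142 bp in noDox, 44.8 bp in iHoxc9 and 281 bp in iHoxc10, which was near the 264 bp in EBs and the 254 bp in progenitors.

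Upstream of Pax2, a group of intergenic regions accounted for much of its length in iHoxc10. The region 83.9 kb upstream (chr19:44671681-44672563) had 483 bp in EBs, 386 bp in progenitors, 625 bp in noDox, 234 bp in iHoxc6, 26 bp in iHoxc9 and 883 bp in iHoxc10. Next to it, the region 84.9 kb upstream (chr19:44670906-44671417; sequence above) was open only in iHoxc6, with 274 bp, and iHoxc10, with 501 bp. Another 74.1 kb upstream (chr19:44681835-44682048) was likewise held by iHoxc6 with 181 bp and iHoxc10 with 208 bp alone. At 59.2 kb upstream, 39 bp in noDox stood against 332 bp in iHoxc6, 0 in iHoxc9 and 459 bp in iHoxc10. Its neighbour 57.2 kb upstream (chr19:44698489-44699175) had 40 bp in noDox, 375 bp in iHoxc6, 239 bp in iHoxc9 and 452 bp in iHoxc10. At that neighbour iHoxc9 too had more than noDox, while it had 26 bp at the first and nothing at the other 3.

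A different Pax2 region, at the last exons of the gene 78.9 kb downstream of the nearest start site (chr19:44835727-44836871), was wide in EBs at 1116 bp and in progenitors at 1025 bp. It covered 206 bp in noDox and 115, 61 and 112 bp in iHoxc6, iHoxc9 and iHoxc10. All 4 day 4 lists were thus low here, with or without Dox. Of the 58 Pax2 regions, 32 were in a single list and 6 in every list.

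**Figure D3:**
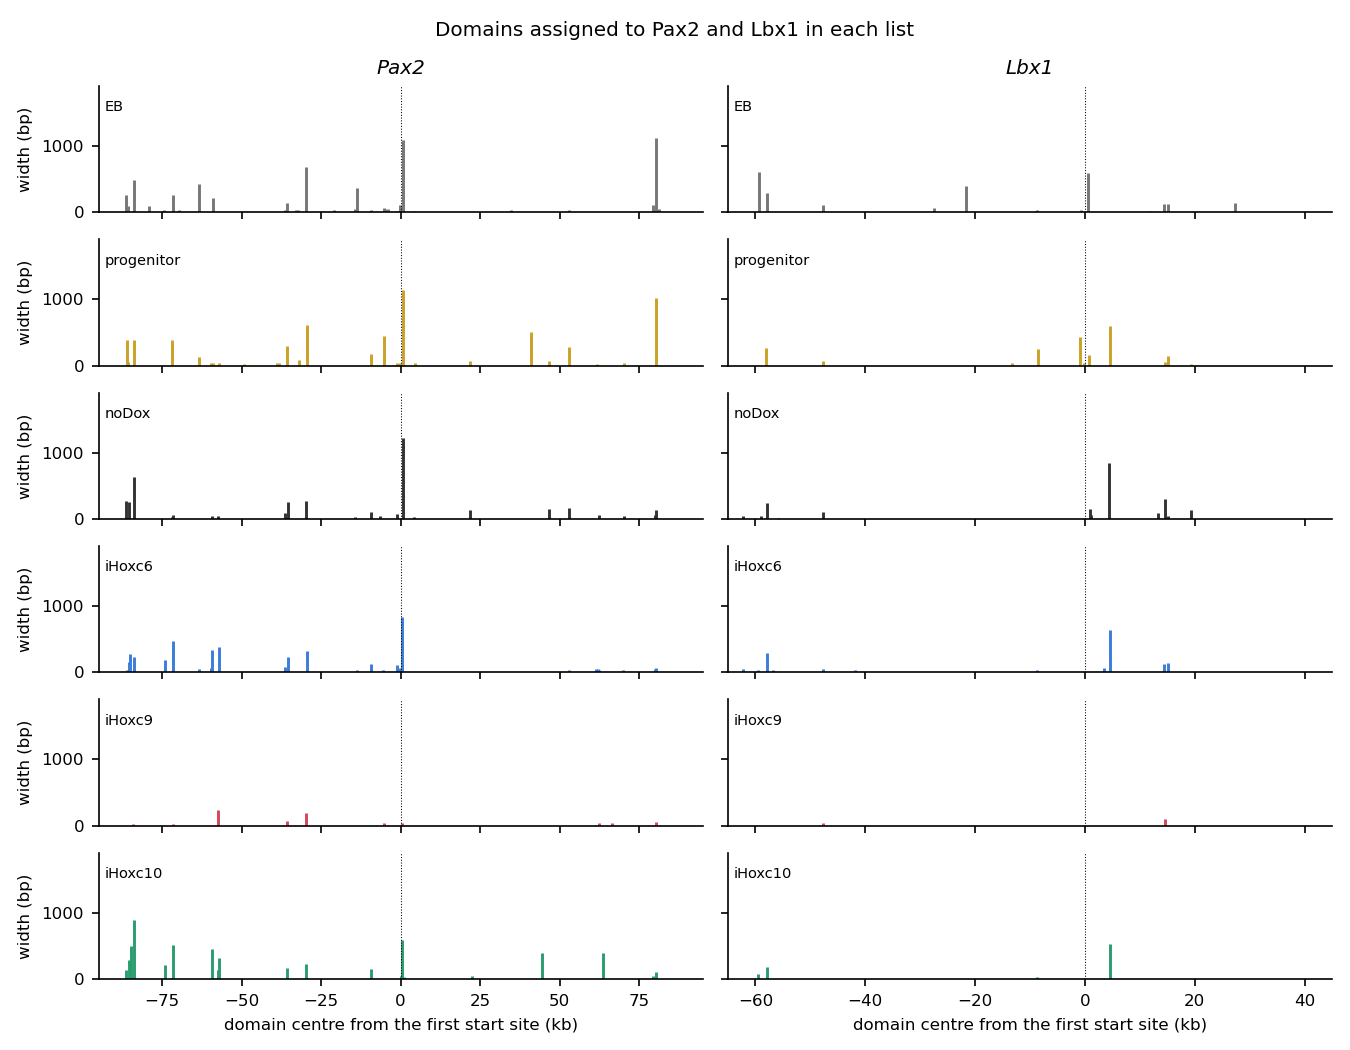
Position of each domain of Pax2 (left) and Lbx1 (right) in kb from the first start site (horizontal axis, in the direction of transcription) and its width in bp (vertical axis), with 1 row per list. In iHoxc9 the promoter domain of Pax2 was 45 bp wide and the Lbx1 region 4.44 kb downstream was absent, while both genes had wider domains in noDox, iHoxc6 and iHoxc10.

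Sim1, which encodes a bHLH-PAS factor, had more open chromatin in 3 of the 4 day 4 lists than in the earlier lists. It covered 1322 bp in EBs, 2213 bp in progenitors, 4127 bp in noDox, 3578 bp in iHoxc6, 4102 bp in iHoxc9 and 1975 bp in iHoxc10. Of the 9 genes, Sim1 had the highest ratio of iHoxc9 to noDox, 0.994, followed by En1 at 0.771. Scaled per Mb of the list, it was at 139 bp in noDox, 144 bp in iHoxc6, 231 bp in iHoxc9 and 98.2 bp in iHoxc10.

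The Sim1 region 131 kb upstream (chr10:50763027-50764171; sequence above) lies inside Ascc3, the neighbouring gene, and touches an exon of one of its transcript records. It was absent from EBs and progenitors, although a separate progenitor domain of 46 bp lay close by. It covered 384 bp in noDox, 482 bp in iHoxc6, 1145 bp in iHoxc9 and 471 bp in iHoxc10. In iHoxc9 it was the widest region of Sim1 outside the promoter. At the promoter itself (chr10:50894054-50895298), the covered length was 809, 754, 1187, 1215 and 1227 bp from EBs to iHoxc9, and 473 bp in iHoxc10.

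Within the Sim1 gene, an intronic region 7.62 kb downstream of the nearest start site (chr10:50902915-50903619) had 134 bp in EBs, none in progenitors, 705 bp in noDox, 315 bp in iHoxc6, 53 bp in iHoxc9 and none in iHoxc10. A second intronic region at 2.30 kb (chr10:50897777-50898116) was held by EBs with 38 bp, noDox with 275 bp, iHoxc9 with 320 bp and iHoxc10 with 268 bp. The iHoxc9 list thus had the most of all lists at 131 kb upstream and at 2.30 kb downstream, and little at 7.62 kb downstream.

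En1, a homeobox gene of V1 inhibitory neurons and of the midbrain, covered 2141 bp in EBs, 2852 bp in progenitors, 4409 bp in noDox, 3489 bp in iHoxc6, 3399 bp in iHoxc9 and 2547 bp in iHoxc10. It was called neither with Hoxc6 nor with Hoxc9 or Hoxc10 against noDox. Its promoter region (chr1:120602152-120603951, with untranslated and coding exon) covered 1251, 1551, 1800, 940, 946 and 526 bp, and the noDox list, with 1800 bp, was the widest of the 6. At the 3′ end of the gene, 4.73 kb downstream (chr1:120606932-120607369), the noDox list had 438 bp and iHoxc6, iHoxc9 and iHoxc10 had 45, 50 and 281 bp, with none in EBs and progenitors.

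Far downstream of En1, in an intergenic interval, 2 neighbouring regions behaved differently. The one at 309 kb (chr1:120910606-120911301) was absent from EBs and covered 194 bp in progenitors, 621 bp in noDox, 663 bp in iHoxc6, 511 bp in iHoxc9 and 562 bp in iHoxc10. The other at 310 kb (chr1:120911727-120912648; sequence above) had 47 bp in EBs, 38 bp in progenitors, 34 bp in noDox, 130 bp in iHoxc6, 913 bp in iHoxc9 and 589 bp in iHoxc10. Every list thus held a part of the latter, but the 2 posterior factors had far more of it than the rest. The parts differed. The EB and noDox domains were centred 310207 bp from the start site, those of progenitors and iHoxc6 at 309653 and 309704 bp. These were joined to the EB and noDox domains only through the wide iHoxc9 and iHoxc10 domains.

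**Figure D4:**
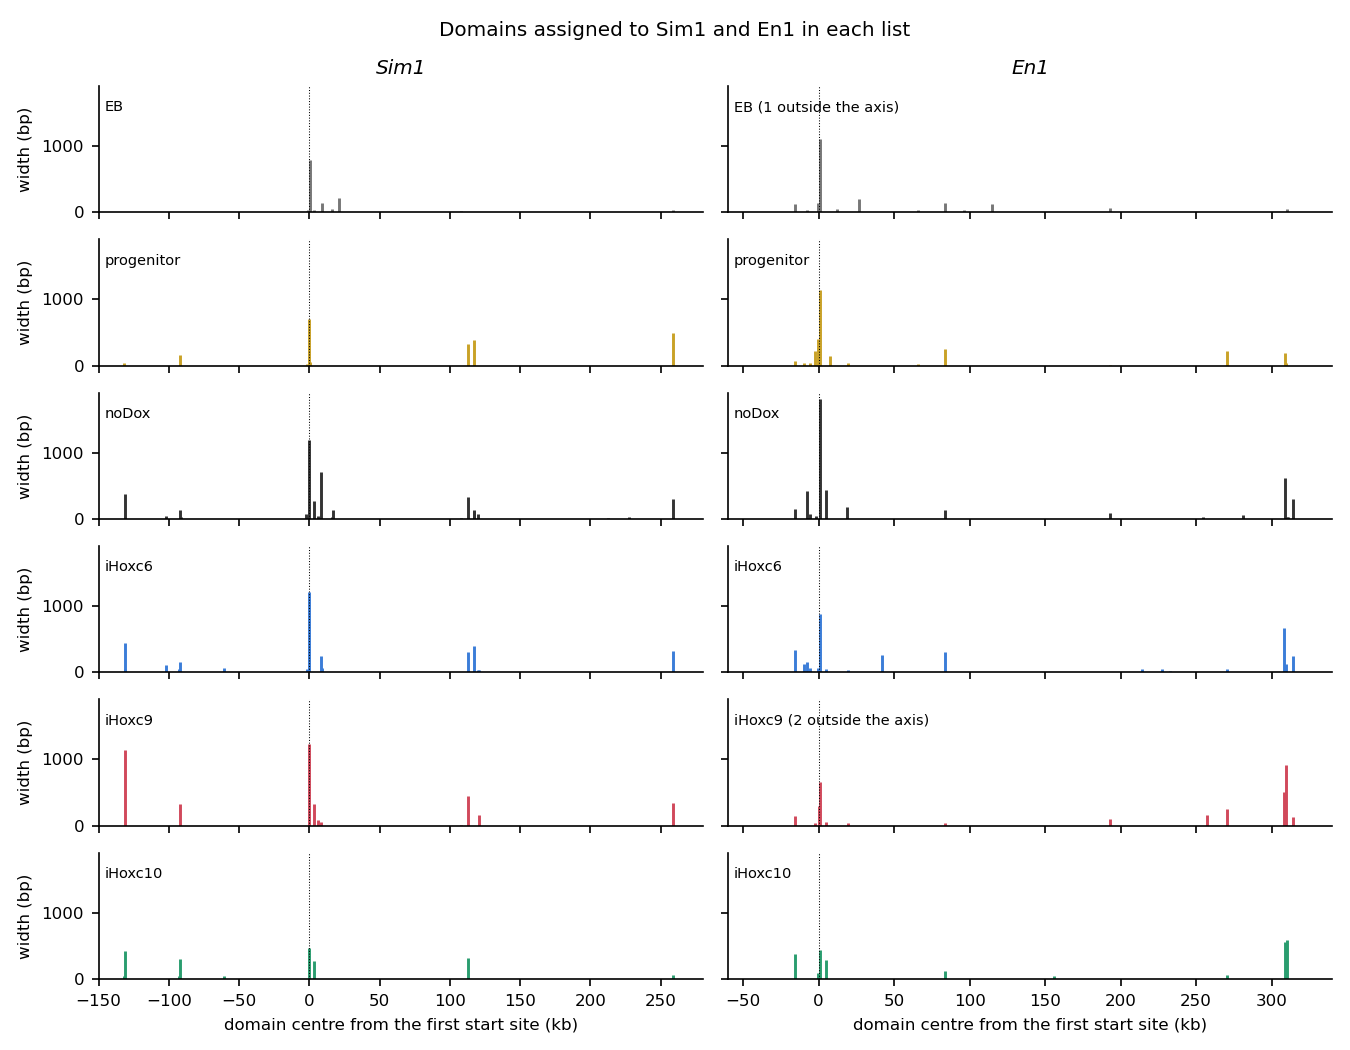
Position of each domain of Sim1 (left) and En1 (right) in kb from the first start site (horizontal axis, in the direction of transcription) and its width in bp (vertical axis), with 1 row per list. The Sim1 region 131 kb upstream reached 1145 bp in iHoxc9, and the En1 region 310 kb downstream reached 913 bp in iHoxc9 and 589 bp in iHoxc10. Domains beyond the axis are counted in the row labels.

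Of the V2b factors, Tal1, a bHLH protein, covered 2021 bp in EBs, 1317 bp in progenitors, 2745 bp in noDox, 1647 bp in iHoxc6, 1514 bp in iHoxc9 and 894 bp in iHoxc10. The region at its first promoter (chr4:115056403-115057525) had 699, 729, 1123, 812, 314 and 62 bp in this order, so iHoxc10 had the least. An exonic region 3.73 kb downstream of a start site (chr4:115062683-115063797) was wide in every list, at 610, 512, 1115, 661, 791 and 543 bp.

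Gata3, a zinc finger factor, covered 5137 bp in EBs, 5831 bp in progenitors, 5107 bp in noDox, 3703 bp in iHoxc6, 2657 bp in iHoxc9 and 2053 bp in iHoxc10. The number of domains went with it, at 31, 33, 23, 20, 17 and 10. Its promoter region (chr2:9878391-9880075) covered 1519, 1412, 1685, 1316, 954 and 941 bp. The Gata3 gene record in GENCODE overlaps 4930412O13Rik and 9230102O04Rik, so some gene body domains lie on exons of these genes.

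Of the 81 Gata3 regions 63 lay outside the gene, and the next start site on the downstream side, that of Celf2, is 2483 kb away. One intergenic region, 245 kb downstream (chr2:9632843-9633525; sequence above), was absent from EBs and progenitors and covered 459 bp in noDox, 609 bp in iHoxc6, 271 bp in iHoxc9 and 121 bp in iHoxc10. As many as 60 Gata3 regions were in a single list, and the only 2 in every list were at the promoter.

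Gata2, which acts upstream of Gata3 in V2b cells, had most open chromatin in progenitors. It covered 1445 bp in EBs, 2824 bp in progenitors, 1680 bp in noDox, 1375 bp in iHoxc6, 1221 bp in iHoxc9 and 1149 bp in iHoxc10. Against every list but iHoxc9, most of the difference lay at the first of its 2 promoters (chr6:88193504-88194587; bases before the start site above). This promoter had 37, 1032, 32, 240, 578 and 67 bp. The 250 bases before that start site were covered whole in progenitors and iHoxc9 and not at all in the other 4 lists. At the second promoter (chr6:88198178-88198869) the covered length was 336, 467, 672, 237, 165 and 233 bp, a different order of the lists.

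A region 4.02 kb upstream of Gata2 (chr6:88189364-88190370), on an exon of the lincRNA Gm38708, was wide in every list, at 792, 686, 815, 709, 478 and 697 bp.

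Foxn4, a forkhead factor needed for the V2 lineage, covered 1180 bp in EBs, 1444 bp in progenitors, 1111 bp in noDox, 1446 bp in iHoxc6, 466 bp in iHoxc9 and 1103 bp in iHoxc10. Its promoter domains covered 780 bp in EBs and 789 bp in progenitors, 281 bp in iHoxc6, and were absent from noDox, iHoxc9 and iHoxc10. An intronic region 9.52 kb downstream of the start site (chr5:114263991-114264576; sequence above) was absent from EBs and progenitors and had 586, 450, 357 and 439 bp in noDox, iHoxc6, iHoxc9 and iHoxc10. The lower total in iHoxc9 lay mostly outside the gene. The region 5.92 kb upstream (chr5:114279429-114280018, intergenic) had 317 bp in progenitors, 360 bp in noDox, 566 bp in iHoxc6 and 322 bp in iHoxc10, with none in EBs or iHoxc9.

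Evx1, a homeobox gene at the edge of the HoxA cluster whose nearest neighbour Hoxa13 has its start site 52.6 kb away, lay below the median covered length of all genes, which was 894.5 bp in EBs, 1088 bp in noDox and 642 bp in iHoxc9. It covered 834 bp in EBs, 862 bp in progenitors, 954 bp in noDox, 718 bp in iHoxc6, 342 bp in iHoxc9 and 680 bp in iHoxc10. The intergenic region 7.38 kb upstream (chr6:52305913-52306319; sequence above) was in every list, with 286, 380, 125, 163, 133 and 283 bp. A region 55.5 kb downstream (chr6:52368831-52369225) was absent from EBs and in every later list, with 0, 395, 314, 328, 171 and 282 bp. The promoter domain of 42 bp in noDox, the only one at Evx1, was narrower than the median noDox domain of 155 bp.

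Taken as regions, the domains of the 9 genes merged into 272, of which 170 were in a single list (62.5%, against 63.7% of all regions) and 22 in all 6 (8.09%, against 11.2%). Of the 25 promoter regions 8 were in all 6 lists, of the 54 other gene body regions 2, and of the 193 outside the genes 12. Among the 61 regions held by both progenitors and noDox, iHoxc6 lacked 11 (18.0%, against 11.7% of all such regions), iHoxc9 lacked 26 (42.6%, against 27.5%) and iHoxc10 lacked 23 (37.7%, against 26.6%). Pax2 had 9 and Gata3 had 7 of the 26 lacking in iHoxc9. Of the regions in each induced list, 34 of 107 in iHoxc6, 17 of 65 in iHoxc9 and 15 of 62 in iHoxc10 were in neither progenitors nor noDox, or 31.8%, 26.2% and 24.2%, against 33.6%, 26.2% and 18.2% of all regions. In all 4 day 4 lists and in neither earlier list were 4 regions (1.47%, against 1.07% of all regions), which were the Sim1, Foxn4 and Gata3 regions printed above and the region at the 3′ end of En1.

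Regions that appeared after the progenitor stage were counted separately. Of those absent from EBs and progenitors, 10 were held by at least 2 induced lists, and 32 were held by noDox and no induced list. The 32 were thus in a single list, as were 63.7% of all regions. Neither count was made over all regions, so neither can be read as particular to these genes. The 32 noDox regions had a median width of 45.5 bp, and Gata3 had 10 and Sim1 had 8 of them. The widest were 3.18 kb upstream of the Gata3 start site, with 350 bp, and 8.21 kb downstream of Evx1, with 256 bp. The former touches an untranslated exon of 4930412O13Rik, whose start site is 2.65 kb from that of Gata3. The other 10 included an intergenic En1 region 314 kb downstream (chr1:120916316-120916611), with 296 bp in noDox, 244 bp in iHoxc6 and 131 bp in iHoxc9. They also included an intergenic Evx1 region 139 kb downstream (chr6:52452279-52452500), with 170 bp in noDox, 186 bp in iHoxc6 and 84 bp in iHoxc10, and a Sim1 region 120 kb downstream (chr10:51015080-51015241), with 70, 40 and 162 bp in noDox, iHoxc6 and iHoxc9.

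The same calls were made on a list of 27 other interneuron factors. Of these, 16 of the 26 with at least 500 bp in noDox or iHoxc9 were called lower in iHoxc9, among them Prdm12 (1542 bp in noDox and 123 bp in iHoxc9), Prrxl1 (1582 and 171 bp) and Lhx5 (1861 and 362 bp). In iHoxc10, 8 of 26 were lower, among them Lhx2 (3717 and 703 bp) and Lhx9 (1953 and 412 bp). Barhl1 was called higher there (942 and 2428 bp), as were 0.279% of all genes. Promoter domains were present at 25, 24, 22, 18, 17 and 17 of the 27 from EBs to iHoxc10. The shares of all genes with one were 68.6%, 65.9%, 64.8%, 65.1%, 62.3% and 61.9% in the same order. Of 10 motor neuron genes, 7 were called lower in iHoxc9, Chat (4663 and 713 bp) among them, and 1, Isl2, in iHoxc10. Both lists are to be read against the 27.6% and 14.5% of all genes called lower. With each list scaled to its own covered length, 7 of the other interneuron factors and 3 of the motor neuron genes were called lower in iHoxc9. In iHoxc10, 4 and 0 were. The scaled shares of all genes called lower were 5.47% in iHoxc9 and 3.09% in iHoxc10. Of the other interneuron factors, 2 were called higher in iHoxc10 when scaled (1.27% of all genes), 1 in iHoxc6 (0.907%) and 0 in iHoxc9 (2.21%). Not all had less, as Pou4f1 had 3299 bp in noDox and 3771 bp in iHoxc9. The part of cell composition in these values was not tested.

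Since Gata2, Gata3 and Tal1 also act in blood and endothelium, 10 markers of those cells were read in the same lists. Their summed covered length was 15171 bp in EBs, 15149 bp in progenitors, 17343 bp in noDox, 13711 bp in iHoxc6, 10165 bp in iHoxc9 and 9652 bp in iHoxc10. Gata1, the defining erythroid factor, had no domain in any list. Promoter domains were found at 5 of 10 markers in EBs and at 4 in every other list, where 61.9% to 68.6% of all genes had one. Kdr and Pecam1, 2 of the 7 markers tested, were called higher from EBs to progenitors (7.60% of all genes). Spi1 and Tie1 also had more in progenitors than in EBs, while Lmo2 and Tek had less. Cdh5 (5945 bp in EBs and 4178 bp in progenitors), Runx1 (2244 and 1741 bp) and Fli1 (2615 and 1671 bp) had less too. Against noDox, Pecam1 was called lower in iHoxc6, 1 of 7 tested (3.81% of all genes). Kdr and Pecam1 were called lower in iHoxc9, 2 of 8 (27.6%), and in iHoxc10, 2 of 7 (14.5%). Scaled to the list, 1 marker was called lower in each of iHoxc6, iHoxc9 and iHoxc10 (1.32%, 5.47% and 3.09% of all genes). In iHoxc9, 1 was called higher (2.21%). Kdr had 2291 bp in noDox and 859 bp in iHoxc10, and Pecam1 had 1204 and 228 bp. The part of such cells in the Gata2, Gata3 and Tal1 values was not tested. Among transmitter genes of interneurons, Slc6a5, a glycine transporter, and Slc17a6, a glutamate transporter, were called lower in iHoxc6, 2 of 4 tested (3.81% of all genes), and in iHoxc10, 2 of 5 (14.5%). In iHoxc9, Slc6a5 was called lower, 1 of 4 (27.6%). Of the transmitter genes scaled to the list, 0 were called lower in iHoxc6 (1.32% of all genes) and iHoxc9 (5.47%) and 1 in iHoxc10 (3.09%). In iHoxc6, 1 was called higher when scaled (0.907%). Slc32a1 had 696 bp in noDox and 1301, 775 and 797 bp in iHoxc6, iHoxc9 and iHoxc10. Gad1 had 343 bp in noDox and 150, 123 and 501 bp in the same order. Gad2 had 4419 bp in noDox and 4184, 4261 and 3713 bp.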

How the data were processed

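ATAC-seq was done in 12 samples, 2 in each of 6 groups assigned by the labels. Per the methods of the study and the submitters' notes, the authors mapped reads to mm10 with Bowtie2 2.2.2, used Picard 2.8.2, and called domains with DomainFinder, whose settings are not given in the sources used here. Each deposited list pools both samples of a group and holds domain starts and ends in bp, with no signal per domain. Starts were read as in BED and are printed counting from 1, uncertain by 1 bp.

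Domains were assigned with Python 3.11.15, NumPy 2.4.6 and pandas 2.3.3 to protein-coding genes of GENCODE M21 (basic transcripts), by an overlap of at least 1 bp with the promoter (TSS ± 1 kb) or gene body, or by the nearest TSS. Calls needed a 2-fold difference in covered length and at least 500 bp, over genes with at least 500 bp in either list. Promoter sequences came from RefSeq, where Lbx1 was not matched. The assignment was checked on simulated data, where 21 checks were run and 0 differed. The genes, lists, regions and rules were chosen with earlier results of these data known. Regions were named by a rule (promoters, the widest other region of each gene, and up to 2 late regions per gene), narrow ones being left to counts, and further regions were chosen after their values were seen.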

Additional observations from a re-analysis of the deposited data

Results flagged for a closer look

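Pax2 differed from noDox in opposite directions in the induced lists. Its covered length was 112 bp higher in iHoxc6 and 1443 bp higher in iHoxc10, while the iHoxc9 value minus that of noDox was -3422 bp. With 1 pooled list per group, this difference between Hox factors was not tested.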

How the results depend on the processing

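No paired analysis was possible because each group has 1 pooled list, and no replicate was left out. The number of genes with a promoter domain stayed within 1.5 times its value under all 36 alternatives.

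The total number of domains moved in every list with only domains at least 150 bp wide (40, 58, 41, 43, 28 and 40 from EBs to iHoxc10) and with promoter and gene body only (39, 38, 37, 32, 23 and 25). It also moved with the widest domains, as many as the shortest list holds (61, 68, 67 and 68 from EBs to iHoxc6), and in iHoxc9 with the nearest TSS within 100 kb (45). Covered length moved with promoter and gene body only (11177, 13036, 13553, 8805, 6172 and 5980 bp) and in iHoxc9 within 100 kb (8841 bp).

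Calls moved as follows, each with the share of all genes called in brackets. Scaling to the list gave 0 higher from progenitors to noDox (2.05%), 1 from EBs to noDox (6.46%), 2 lower in iHoxc9 (5.47%) and 1 in iHoxc10 (3.09%). At 1.5-fold, 2 were higher (16.8%) and 1 lower (10.4%) from EBs to progenitors, 3 higher (13.2%) and 2 lower (3.57%) from progenitors to noDox, and 1 lower in iHoxc6 (13.8%). Domains at least 150 bp wide gave 2 higher from EBs to progenitors (11.1%) and 2 lower in iHoxc10 (16.0%), where Sim1 and Lbx1 were lost, and the widest domains gave 1 higher from EBs to progenitors (9.26%). Within 100 kb, 2 were higher from progenitors to noDox (4.54%) and 1 from EBs to noDox (14.3%), while in iHoxc9 (27.5%) Evx1 was lost and En1 and Gata3 were added, and in iHoxc10 (14.4%) En1 was added. With progenitors in place of noDox, added after seeing the data, 1 was lower in iHoxc6 (3.38%). The cause was not tested. No call reversed. Of the 272 regions, 108 were left with domains at least 150 bp wide, 54 of them in a single list and 7 in all 6. The remaining 138 recomputed totals and counts stayed within 1.5 times. Read depth is unknown, so a domain missing from a list may be closed or not detected.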
